A study of Mus musculus with 12 samples.

Results

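Tumour necrosis factor (TNF) signals through a pair of receptors, and the genes described here encode the ligand, its sheddase, both receptors and the proteins that dock on the receptors first. They are a list of names, with no threshold on a measured value, drawn up with earlier results of these data known: Tnf, Adam17, Tnfrsf1a, Tnfrsf1b, Tradd, Ripk1, Traf2, Traf1, Birc2 and Birc3, 10 of the 56791 gene names in the table. RNA was sequenced from hippocampal astrocytes of adult naive male mice, sorted by flow cytometry on the astrocyte surface antigen ACSA-2. The Ctrl group carries Tnfrsf1b flanked by loxP sites (Tnfrsf1bfl/fl). The cKO group carries the same floxed gene and GfapcreERT2, a Cre recombinase that is activated by tamoxifen and driven by the Gfap promoter, so that recombination is limited to cells in which that promoter is active. Both groups therefore share the floxed allele, and the labels used here state neither tamoxifen dosing nor an exact age. Each group has 3 A numbers (Ctrl A1, A2 and A8; cKO A4, A9 and A10), each with an S1 and an S2 library. The labels define neither letter, so S1 and S2 were averaged and each A number was counted as 1 unit, n = 3 per genotype. Nothing states that the units are separate animals, and p-values then measure only the spread between these units.

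TNF is made as a membrane protein and is released by the metalloprotease ADAM17, which also cuts the receptors from the cell surface. TNFR1 (Tnfrsf1a) carries a death domain that recruits the adaptor TRADD and the kinase RIPK1, whereas TNFR2 (Tnfrsf1b) has none and binds TRAF2 directly. TRAF2, alone or with TRAF1, brings the ubiquitin ligases cIAP1 (Birc2) and cIAP2 (Birc3), and the ubiquitin chains built there lead to NF-kB and MAP kinase activation or, where they fail, to cell death. In the brain, microglia are known as the main source of TNF, and astrocytes are known to respond to it.

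Recovered depth ranged from 17311873 to 22025818 reads for S1 and from 28096482 to 35323317 for S2. A gene is called detected in a library when it has more than 3 reads, because a count of 0 allows up to 3 where counts are independent. The mates of a pair are counted singly here, and 72.6% to 80.4% of whole counts from 1 to 20 were even. The floor of 3 reads therefore stands for fewer fragments and is less strict than that bound. Reads carry no molecular identifiers, so this floor covers counting error only. Astrocyte markers were abundant: Aqp4 was at 169 to 268 FPKM and Slc1a2 at 1491 to 2007 FPKM across the libraries. FPKM is the number of fragments per kilobase of a gene when a library is scaled to 1000000 fragments. Markers of other cells were present as well. The summed FPKM of 8 oligodendrocyte genes was 961 to 2061 in Ctrl and 278 to 658 in cKO units, with no overlap, and 8 of 8 were lower on average in cKO. For 8 microglial genes the sum was 15.2 to 19.1 in Ctrl and 21.2 to 37.7 in cKO, although Tmem119 was at 0 in 8 libraries and Cx3cr1 in 6. For 6 endothelial genes it was 4.54 to 54.6 in Ctrl and 4.77 to 39.2 in cKO. In bulk RNA, fewer cells of a type and less RNA per cell cannot be told apart.

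Of the 10 genes, 7 were detected in 12 of 12 libraries: Tnfrsf1a, Birc2, Adam17, Ripk1, Traf2, Traf1 and Birc3. Tradd was detected in 8 libraries, Tnfrsf1b in 3 and Tnf in 2. With a floor of 10 reads these were 7, 1 and 0, and the 7 genes stayed at 12. The ablated gene Tnfrsf1b was listed at 0 in 9 libraries, and its highest value was 22 reads in A4 S2, a library labelled cKO, against 4 reads in the highest Ctrl library. Ctrl libraries held too few reads for a loss to be seen. Tnfrsf1b therefore does not check the genotype labels, that of A4 included, and Ctrl and cKO below are groups as labelled. Tnf had 10 reads in each A10 library and 0 in the others. The summed microglial level was 37.7 FPKM in A4 and 21.2 FPKM in A10, both above the Ctrl range given above; the part of microglial RNA in these reads was not tested.

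**Figure D1:**
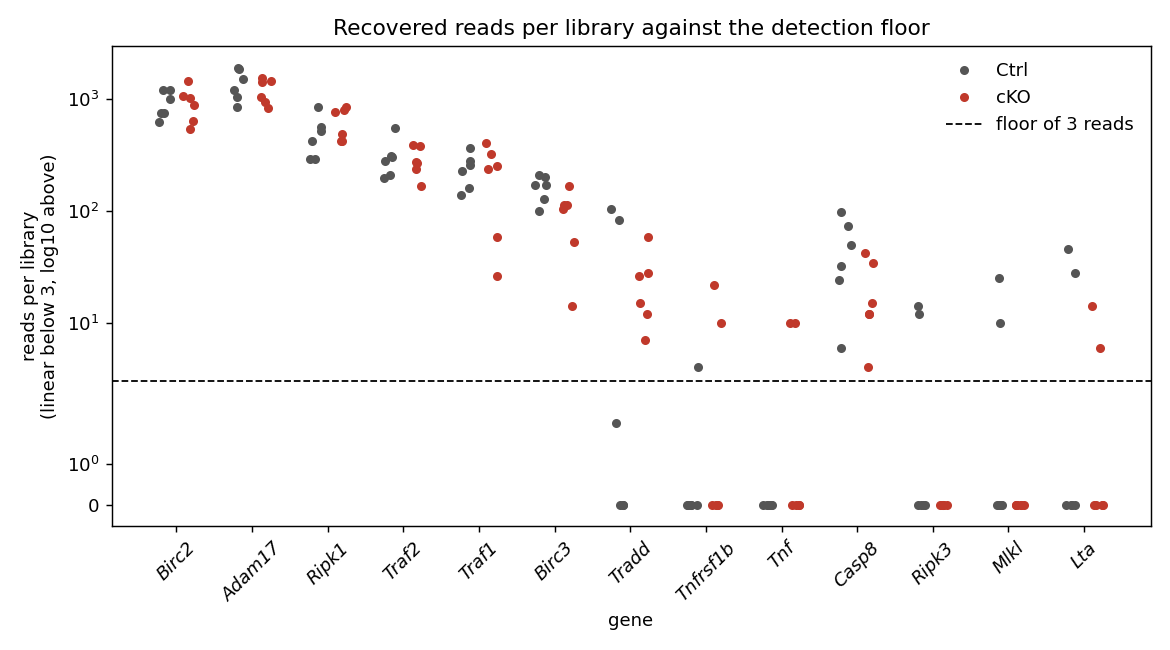
Recovered reads per library (vertical axis, linear below 3 and log10 above) for the 9 members other than Tnfrsf1a and 4 further pathway genes, with Ctrl libraries in grey, cKO libraries in red and the floor of 3 reads dashed. Birc2 (541 to 1463 reads) and Adam17 (838.5 to 1886 reads) lie far above the floor in every library, Tradd spans it (0 to 104 reads), and Tnfrsf1b, Tnf, Ripk3 and Mlkl are at 0 in most libraries.

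Levels are compared per length, as FPKM. Averaged over the 6 units, Tnfrsf1a stood at 11.0 FPKM, Birc2 at 8.17 and Adam17 at 7.38. Ripk1 (2.71) and Traf2 (2.36) followed, then Birc3 (1.05), Traf1 (1.03) and Tradd (0.622), with Tnf (0.0458) and Tnfrsf1b (0.0281) last. Adam17 was above Ripk1 in 6 of 6 units, and Traf2 was above Birc3 in 6 of 6. The other neighbours in this order crossed or tied in at least 1 unit and are not separate beyond their spread. Tnfrsf1a was above Birc2 in 5 units, Birc2 above Adam17 in 4 and Ripk1 above Traf2 in 4. Birc3 was above Traf1 in 4 units, and Traf1 above Tradd in 4. Tradd was above Tnf in 5 units, and both were at 0 in Ctrl A8. Tnf was above Tnfrsf1b in 1 unit, with ties at 0 among the others. The genes tested below are the 17540 with a mean of at least 1 FPKM. Of these, 79.4% had a lower mean level than Tnfrsf1a and 71.4% a lower one than Birc2. For Traf1, just above that cut, the share was 1.05%, and the genes under the cut are not in it.

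**Figure D2:**
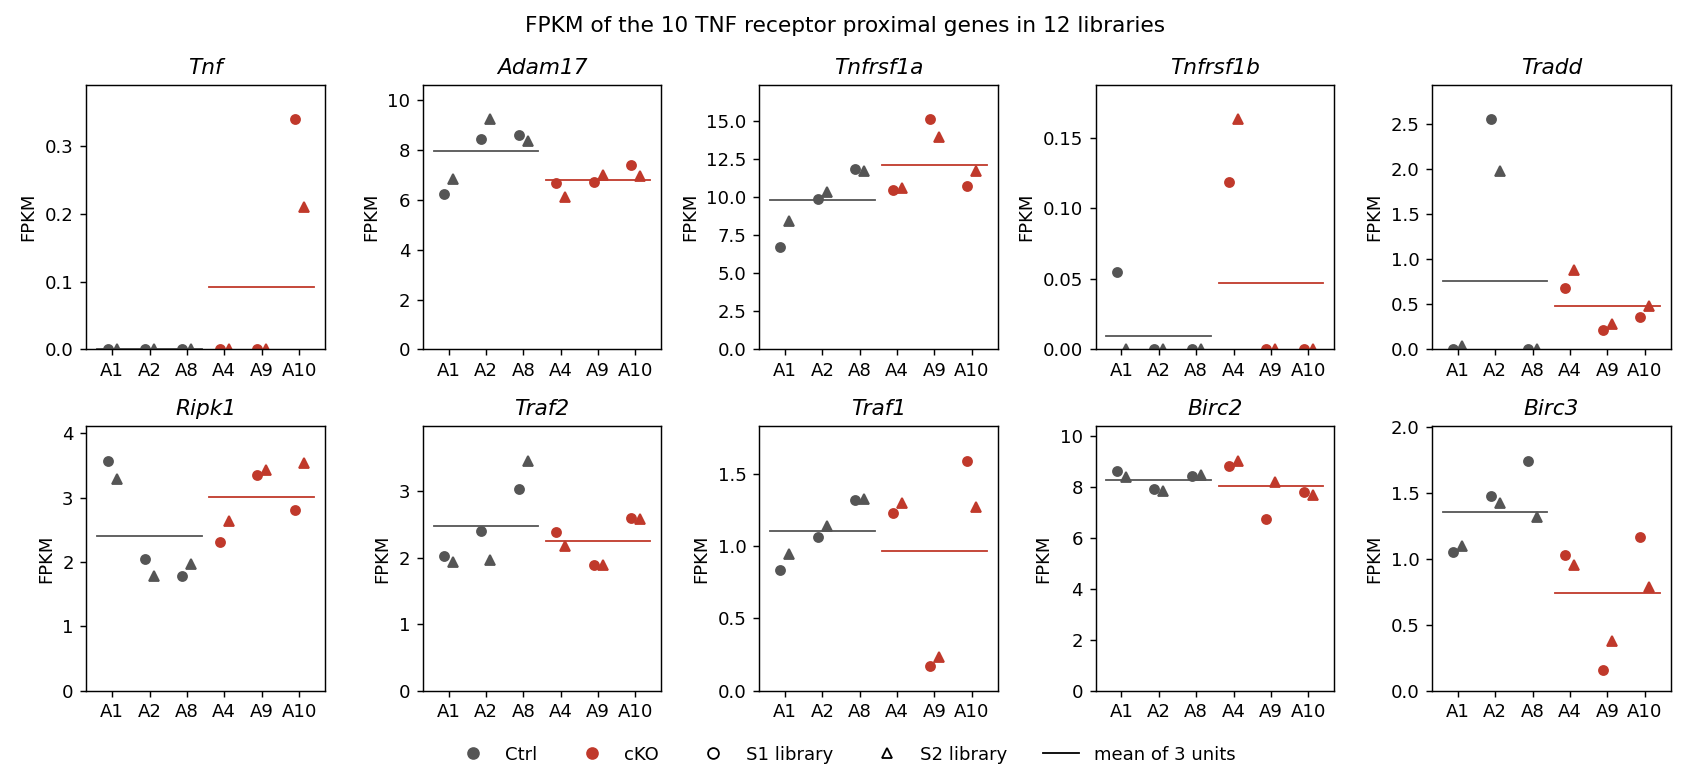
FPKM (vertical axes from 0, each gene on its own scale) of the 10 genes in the 12 libraries, circles for S1 and triangles for S2, grey for Ctrl and red for cKO, with a line at the mean of the 3 units of each genotype. Birc2 is the flattest panel at 6.77 to 9.04 FPKM, A9 is the low unit for Traf1 and Birc3, and A2 is the high unit for Tradd.

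The comparison of cKO with Ctrl sets the group labelled as lacking astroglial TNFR2 against its floxed controls. As given above, Tnfrsf1b reads were too few in Ctrl to show whether it was lost. No difference between the genotypes passed the test in any of the 7 genes that could be tested. The 7 genes with a mean of at least 1 FPKM were tested with limma on log2(FPKM + 1), over 17540 genes; differences on this scale understate the change of low genes. Of the 7, 0 had an adjusted p under 0.05, where 0% of all genes tested did. At an unadjusted p under 0.05 the count was again 0 of 7, where 7.69% of all genes tested passed (523 higher and 826 lower in cKO, or 761 and 625 under upper quartile scaling). As a description, the units of the genotypes did not overlap in 1 of the 7, Birc3, where 13% of all genes tested did not overlap (7.22% lower and 5.76% higher in cKO). The median log2 difference of the 7 was -0.08, against -0.0065 over all genes tested, with 2 above 0 and 5 below. Over all genes tested, 8622 were above 0 and 8918 below. The filter admits a gene by its mean over all libraries; Traf1 (1.03) and Birc3 (1.05) lie just inside it and Tradd (0.622) outside. Both pass through the Ctrl group (1.10 and 1.35 FPKM, against 0.964 and 0.743 in cKO), so that being tested and being lower in cKO are tied for them.

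Adam17 (ENSMUSG00000052593, chromosome 12, start 21373510, end 21423633, minus strand) encodes the sheddase. In Ctrl it was at 6.23 and 6.82 FPKM in A1, 8.45 and 9.23 in A2 and 8.61 and 8.37 in A8 (S1 and S2). The cKO libraries were at 6.66 and 6.10 FPKM in A4, 6.72 and 7.004 in A9 and 7.39 and 6.97 in A10. The highest Ctrl units were A2 and A8, while Ctrl A1 lay within the cKO range, so the groups overlapped. Ctrl units averaged 7.95 ± 1.25 FPKM and cKO units 6.81 ± 0.404 (SD, n = 3 each; two-sided exact permutation p = 0.3). On the log2 scale the difference was -0.19 (SE 0.16, 95% interval -0.57 to 0.20, limma adjusted p = 0.875). It was -0.31 without Ctrl A1, -0.12 without Ctrl A2 and -0.12 under upper quartile scaling. Its exons share 311 bases (4.35%) with Iah1 on the opposite strand, and its recovered reads were whole numbers in 5 of 12 libraries.

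Tnfrsf1a (ENSMUSG00000030341, chromosome 6, start 125326325, end 125339447, plus strand), the death domain receptor, averaged 7.58, 10.1 and 11.8 FPKM in Ctrl A1, A2 and A8 and 10.6, 14.5 and 11.2 FPKM in cKO A4, A9 and A10. A9 was its highest unit and A1 its lowest, and the groups overlapped (log2 difference 0.29, 95% interval -0.19 to 0.76, limma adjusted p = 0.842). The difference was 0.13 without Ctrl A1 and 0.16 without cKO A9.

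Tradd (ENSMUSG00000031887, chromosome 8, start 105984918, end 105991241, minus strand) encodes the first adaptor on TNFR1 and differed widely among the Ctrl units. In Ctrl it had 0 and 2 reads in A1, 82.5 and 104 in A2 and 0 in both A8 libraries. In cKO it had 28 and 58 reads in A4, 7 and 15 in A9 and 12 and 26 in A10. The 6 cKO libraries were all above the floor, at 0.215 to 0.880 FPKM, and lay between the Ctrl units: A1 and A8 were under the floor and A2 was above every cKO library, at 2.55 and 1.98 FPKM. The average was 0.762 ± 1.30 FPKM over Ctrl units and 0.483 ± 0.271 over cKO units (SD, n = 3 each; two-sided exact permutation p = 1). S1 and S2 of a unit had like values, so the spread in Ctrl lies between A numbers and not between libraries of one.

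Ripk1 (ENSMUSG00000021408, chromosome 13, start 34186346, end 34221130, plus strand) encodes the kinase that carries the ubiquitin chains of the receptor complex. In Ctrl it was at 3.57 and 3.29 FPKM in A1, 2.04 and 1.79 in A2 and 1.78 and 1.97 in A8. Among cKO libraries it was at 2.32 and 2.63 FPKM in A4, 3.36 and 3.42 in A9 and 2.80 and 3.55 in A10. A2 and A8 were the lowest units, but Ctrl A1 was the highest of all 6. Ctrl units averaged 2.41 ± 0.888 FPKM and cKO units 3.01 ± 0.480 (SD, n = 3 each; two-sided exact permutation p = 0.4). This gave a log2 difference of 0.26 (SE 0.25, 95% interval -0.34 to 0.86, limma adjusted p = 0.896). It was 0.46 without Ctrl A1, 0.16 without Ctrl A2, 0.15 without Ctrl A8 and 0.17 with S1 alone. Of its exonic bases, 511 (6.12%) are shared with the pseudogene Gm17084 on the same strand and 241 (2.89%) with Serpinb6a on the opposite strand.

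Traf2 (ENSMUSG00000026942, chromosome 2, start 25407994, end 25436952, minus strand) encodes the adaptor that both receptor complexes use, and Traf1 (ENSMUSG00000026875, chromosome 2, start 34831762, end 34851784, minus strand) a relative without the RING domain that other TRAF proteins have. Traf2 was at 2.03 and 1.94 FPKM in Ctrl A1, 2.40 and 1.97 in A2 and 3.04 and 3.46 in A8. In cKO it was at 2.39 and 2.18 FPKM in A4, 1.89 and 1.89 in A9 and 2.60 and 2.58 in A10. Ctrl A8 was the highest unit and cKO A9 the lowest, and the groups overlapped. The average was 2.47 ± 0.681 FPKM over Ctrl units and 2.25 ± 0.351 over cKO units (SD, n = 3 each; two-sided exact permutation p = 0.8). The log2 difference was -0.08 (SE 0.24, 95% interval -0.65 to 0.49, limma adjusted p = 0.975), and it changed sign without A8 (0.074) or without A9 (0.0022).

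Traf1 was set apart by 1 unit. It was at 0.834 and 0.946 FPKM in Ctrl A1, 1.06 and 1.14 in A2 and 1.32 and 1.32 in A8. The cKO libraries were at 1.23 and 1.30 FPKM in A4 and 1.59 and 1.27 in A10, but at 0.169 and 0.233 in A9. The A9 libraries had 26 and 58 reads, above the floor, while the other 10 had 140 to 404. The highest unit, cKO A10, was 7.11 times the lowest, cKO A9, so the cKO group holds both ends of the range. Ctrl units averaged 1.10 ± 0.216 FPKM and cKO units 0.964 ± 0.666 (SD, n = 3 each; two-sided exact permutation p = 0.9). On the log2 scale the difference was -0.16 (SE 0.41, 95% interval -1.12 to 0.80, limma adjusted p = 0.969), and without A9 it was 0.16. With a pseudocount of 0.1 it was -0.48.

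Birc2 (ENSMUSG00000057367, chromosome 9, start 7818228, end 7837065, minus strand) and Birc3 (ENSMUSG00000032000, chromosome 9, start 7848700, end 7873187, minus strand) lie close together and encode the paralogous ligases cIAP1 and cIAP2. Birc2 was at 8.64 and 8.42 FPKM in Ctrl A1, 7.92 and 7.83 in A2 and 8.42 and 8.47 in A8. Among cKO libraries it was at 8.82 and 9.04 FPKM in A4, 6.77 and 8.22 in A9 and 7.80 and 7.70 in A10. Its highest unit was 1.19 times its lowest, and its spread within genotypes (SD 0.09 on the log2 scale) was wider than that of 3.79% of the genes tested. The average was 8.28 ± 0.355 FPKM over Ctrl units and 8.06 ± 0.768 over cKO units (SD, n = 3 each; two-sided exact permutation p = 0.8). This gave a log2 difference of -0.04 (SE 0.14, 95% interval -0.37 to 0.29, limma adjusted p = 0.979); the ends of that interval correspond to folds of 0.774 and 1.22 on the FPKM + 1 scale. Its direction turned under upper quartile scaling (0.031), with S2 alone (0.011) and without A9 (0.0064).

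Birc3 was lower in each cKO unit than in each Ctrl unit, but the difference did not pass the test. It was at 1.05 and 1.10 FPKM in Ctrl A1, 1.48 and 1.42 in A2 and 1.74 and 1.32 in A8. In cKO it was at 1.02 and 0.950 FPKM in A4, 0.160 and 0.375 in A9 and 1.17 and 0.782 in A10. Averaged by unit, the highest cKO value was 0.987 FPKM (A4) and the lowest Ctrl value 1.07 FPKM (A1); single libraries overlapped, since A10 S1 was above both A1 libraries. Of all genes tested, 7.22% had every cKO unit below every Ctrl unit. Ctrl units averaged 1.35 ± 0.244 FPKM and cKO units 0.743 ± 0.412 (SD, n = 3 each; two-sided exact permutation p = 0.1, the smallest 3 against 3 units can give). The log2 difference was -0.46 (SE 0.36, 95% interval -1.31 to 0.40, limma adjusted p = 0.859). Without A9, which had 14 and 53 reads, it was -0.24, and with a pseudocount of 0.1 in place of 1 it was -0.95, with an adjusted p of 1 and 0.836. The oligodendrocyte and precursor sums were likewise lower in each cKO unit, a split that all quantities separating the genotypes share. The part of these cells in the Birc3 values was not tested.

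The ratio of Birc2 to Birc3, which compares the paralogues within a unit on the FPKM scale, was 7.95 in Ctrl A1, 5.44 in A2 and 5.52 in A8. In cKO it was 9.05 in A4, 28.0 in A9 and 7.95 in A10. Ctrl A1 and cKO A10 were equal to 3 digits, and A9 stood far above the other 5 units (exact permutation p = 0.1 on log2 ratios, two-sided, n = 3 each). The ratio of Traf2 to Traf1 was 1.81 to 2.46 in the units other than A9 and 9.39 in A9 (exact permutation p = 1). In A9, then, the scarcer paralogue of each pair was far below its level in the other units, whereas the more abundant one was at 7.49 FPKM (Birc2) and 1.89 FPKM (Traf2), the lowest unit of each gene by a small margin.

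Among the members, A9 was the lowest unit of Traf1, Birc3, Traf2 and Birc2. In the pathway list it was the lowest of Rbck1 (4.98 FPKM), Tab3 (1.07), Casp8 (0.113) and Cyld (4.38). It was the highest unit of the member Tnfrsf1a (14.5 FPKM) and, in the pathway list, of Otulin (5.98) and Timp3 (63.7). How often A9 was the lowest unit over all genes tested was not counted, so these names show nothing particular to the pathway. Traf1 and Birc3 fell furthest among the members and were picked after their values were seen. Their promoters are shown, and those of the pathway genes were not examined. The sequences are the 250 bases before the annotated start in RefSeq (GRCm38.p6), read 5′ to 3′ on the gene's strand, minus in both; Traf1 is chr2:34961773-34962022 and Birc3 is chr9:7873171-7873420. These positions are on GRCm38.p6 and are not to be set against the table's positions given above, which are not of that annotation. Capitals mark each CG dinucleotide.
Traf1: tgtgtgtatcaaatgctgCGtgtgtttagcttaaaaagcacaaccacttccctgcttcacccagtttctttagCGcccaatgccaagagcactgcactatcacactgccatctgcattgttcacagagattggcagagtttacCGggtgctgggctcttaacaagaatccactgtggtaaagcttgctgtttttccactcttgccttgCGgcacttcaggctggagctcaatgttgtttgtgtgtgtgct
Birc3: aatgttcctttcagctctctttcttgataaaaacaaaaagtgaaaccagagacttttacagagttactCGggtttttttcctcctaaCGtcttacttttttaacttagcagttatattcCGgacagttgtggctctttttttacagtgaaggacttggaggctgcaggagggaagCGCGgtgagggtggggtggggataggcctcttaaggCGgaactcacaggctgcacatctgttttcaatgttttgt
Promoters were matched for 9 of the 10 genes, in 11 windows. The Traf1 window had 48.0% G and C and 4 CG, and the Birc3 window 43.6% and 6 CG. The 9 windows of the other 7 genes had 55.6% to 70.4% G and C and 9 to 32 CG, so Traf1 and Birc3 were the lowest on both measures, against a median of 52.4% and 6 CG over 32851 windows of all genes. The kappaB consensus (10 bases, both strands) matched in 0 of the 11 windows and in 7.25% of all windows; this says only that these letters are not in this stretch.

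**Figure D3:**
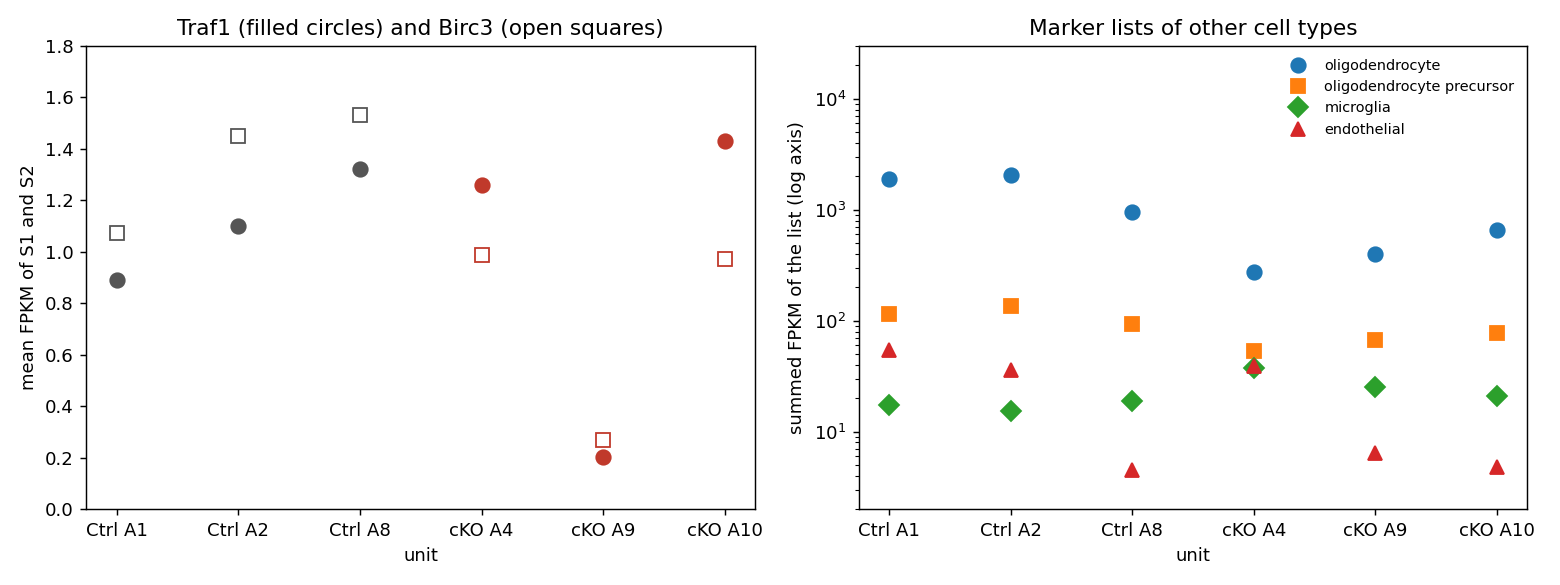
Left, mean FPKM of Traf1 (filled circles) and Birc3 (open squares) in each unit, grey for Ctrl and red for cKO. Right, summed FPKM of 4 marker lists in the same units on a log axis; A9 has the lowest Traf1 (0.201) and Birc3 (0.268), while its endothelial sum (6.40) lies beside those of Ctrl A8 (4.54) and cKO A10 (4.77).

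The endothelial sum was 6.40 FPKM in A9, 4.54 in A8 and 4.77 in A10, and Traf1 stood at 1.32 FPKM in A8 and 1.43 in A10. The part of endothelial RNA in the Traf1 values was not tested. The astrocyte sum was highest in A9, at 4886 FPKM against 3505 to 4393 in the other units. The gene most like Traf1 over the 6 units was Zfp580 (root mean square difference 0.07 on the centred log2 scale), at 1.67 FPKM in A9 and 2.88 to 4.08 in the others. The gene most like Birc3 was Abhd14a (0.06), at 3.56 FPKM in A9 and 6.54 to 8.25 in the others. Both are descriptions, chosen among 17540 genes over 6 units.

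The remaining proximal machinery was described by a list of 31 genes, of which 24 were tested. At an adjusted p under 0.05 limma called 0 of 24, where 0% of all genes tested were called. At an unadjusted p under 0.05 there were 0 higher and 2 lower, where 2.98% and 4.71% of all genes tested were. The count of 2 depended on the settings and on single units. It was 1 under 9 of the 12 alternatives that keep all units, and it was 0 without Ctrl A1, without cKO A4 or without cKO A9, 1 without Ctrl A2 or cKO A10, and 4 without Ctrl A8. The median log2 difference was 0.03, with 15 above 0 and 9 below, against 8622 above and 8918 below over all genes tested. The lower genes were Spata2, which links the deubiquitinase CYLD to the receptor complex, and Map3k5, which encodes the stress kinase ASK1 that binds TRAF2.

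Spata2 was at 8.02, 7.42 and 7.58 FPKM in Ctrl A1, A2 and A8 and at 5.02, 5.33 and 6.13 FPKM in cKO A4, A9 and A10. Every cKO unit lay below every Ctrl unit. On the log2 scale the difference was -0.42 (SE 0.15, 95% interval -0.77 to -0.08, limma unadjusted p = 0.0236, adjusted p = 0.564). Map3k5 was at 3.75, 3.70 and 2.81 FPKM in the Ctrl units and at 2.10, 2.19 and 2.21 FPKM in the cKO units, again without overlap between units. Its log2 difference was -0.47 (SE 0.20, 95% interval -0.94 to -0.0050, limma unadjusted p = 0.0482, adjusted p = 0.642). Map3k14, the kinase of the non-canonical NF-kB route that TRAF2 and the cIAPs hold down, was picked out after its values were seen; it also had every cKO unit (1.27 to 1.40 FPKM) below every Ctrl unit (1.47 to 2.50 FPKM), with a limma adjusted p of 0.900. In all, 3 of the 24 tested genes had every cKO unit below every Ctrl unit, against 7.22% of all genes tested, and 0 had every cKO unit above, against 5.76%. The oligodendrocyte sums (lower in cKO) and the microglial sums (higher in cKO) separate the genotypes as well. Genes counted for such a split share it with them by choice, so the shared split tells nothing about a cause. The part of oligodendrocyte RNA was not tested.

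The next lowest log2 difference was that of Frmd8, a partner of the iRhom proteins that carry ADAM17 to the surface, -0.40 (SE 0.33, limma adjusted p = 0.869); Ctrl A8 (3.03 FPKM) was its lowest unit and the other Ctrl units its highest (6.55 and 8.93). Its difference was -0.77 without Ctrl A8 (limma adjusted p = 0.190) and -0.12 without Ctrl A2. The highest were Mapkapk2 (0.27), a kinase that phosphorylates RIPK1, and Ikbke (0.26) and Azi2 (0.20), a TBK1-related kinase and its adaptor, with limma adjusted p of 0.878, 0.928 and 0.857. With 1 unit left out these ran from -0.00048 (without Ctrl A8) to 0.44 (without Ctrl A2) for Mapkapk2, from 0.12 (without Ctrl A2) to 0.44 (without cKO A9) for Ikbke and from 0.13 (without cKO A10) to 0.28 (without Ctrl A8) for Azi2. Ikbke passed the filter through the cKO group (1.36 FPKM, against 0.954 in Ctrl). Being tested and being higher in cKO are thus tied for it. Of the 5 genes grouped as RIPK1 kinases and their adaptors, Ikbke included, 5 had differences above 0 and 0 passed the test. Over all 17540 genes tested, 8622 were above 0, or 10136 under upper quartile scaling. All 3 linear ubiquitin ligase genes (Rnf31, Rbck1, Sharpin) were tested, with differences of -0.25 to 0.12, and so were 4 of 4 TAK1 complex genes (Map3k7, Tab1, Tab2, Tab3), at -0.28 to 0.04.

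**Figure D4:**
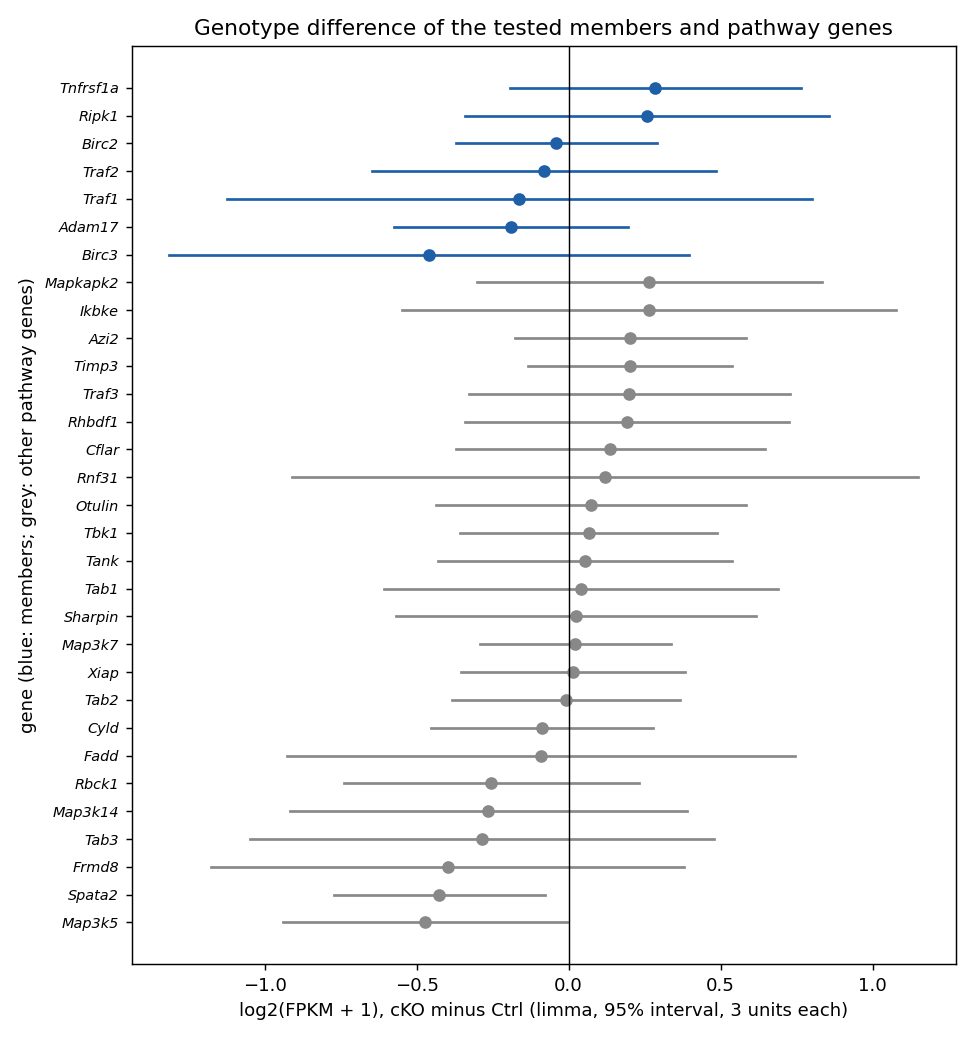
Difference of log2(FPKM + 1) between cKO and Ctrl (horizontal axis) with its 95% limma interval for the 7 tested members (blue) and the 24 tested genes of the pathway list (grey), 3 units per genotype. The intervals of the 7 members all include 0, and those of Spata2 (-0.77 to -0.08) and Map3k5 (-0.94 to -0.0050) end below it; neither passed the adjusted threshold.

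Of the 5 death complex genes, described after their values were seen, 3 were detected in 12 libraries (Fadd, Casp8 and Cflar). Fadd, the adaptor that brings in the initiator caspase, had 41 to 229 reads and averaged 1.17 FPKM, with a log2 difference of -0.09 (limma adjusted p = 0.981). Casp8, which encodes that caspase, was at 0.0792 to 1.09 FPKM, with 4 to 98 reads, so its lowest library lay just above the floor. Ripk3 and Mlkl, which carry out necroptosis, were listed at 0 in 10 libraries each; Ripk3 had 12 and 14 reads in Ctrl A8 and Mlkl 10 and 25 in Ctrl A2. Cflar, which encodes the caspase inhibitor cFLIP, averaged 4.55 FPKM. Lta, the other ligand of both receptors, was detected in 4 libraries, with a highest value of 46 reads in Ctrl A2. Timp3, an inhibitor of ADAM17, was the most abundant gene of the list, at 54.4 FPKM.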

How the data were processed

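The authors deposited 1 table of FPKM values for 56941 genes in 12 libraries, with gene length and exon coordinates; per the file headers, each library column carries an A number, a genotype and S1 or S2. Value times length summed to 1000000 in each library. The submitters' processing notes name FastQC, STAR, featureCounts and DESeq2, and mm10 and GRCm38, without roles or versions. Of 51948 genes found in GENCODE M21 (GRCm38), 2.77% had identical start and end positions, and coordinates are therefore those of the authors' table, with no build assigned.

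Values of 147 repeated symbols were summed, leaving 56791 names. Reads were recovered from the step of low values, with the most frequent low value taken as a pair and each mate counted as 1 read. Since 84.9% to 88.9% of values came out whole within 0.02 reads, the recovered reads served for detection only. S1 and S2 were averaged as log2(FPKM + 1). Pearson's r was 0.980 to 0.984 between S1 and S2 of an A number and 0.788 to 0.896 between A numbers. Genes with a mean of at least 1 FPKM (17540) were tested with limma 3.58.1 in R 4.3.3, with Benjamini-Hochberg adjustment over all of them. Single genes also had an exact two-sided permutation test of unit FPKM means (Python 3.11.15, scipy 1.17.1). The fit was also run on simulated data, where it missed many of the changes put in. A lack of calls therefore does not show that levels are equal.

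The 10 genes and all lists were chosen with earlier results of these data known. From the pathway list, genes at an unadjusted p under 0.05, the 3 highest and 3 lowest differences and genes under the floor in every library (there were none) were named by rule. The gene most like each member was the tested gene with the smallest root mean square difference of centred log2 values over 6 units. There were 18 alternatives: pseudocount, filter, scaling, estimator, library choice, a random A number, a replicate block, recovered reads and leaving out each unit.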

Additional observations from a re-analysis of the deposited data

Results flagged for a closer look

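Tnfrsf1b and Tnf lay outside the genotype test because of their low levels, yet both had reads above the Ctrl libraries in cKO. Tnfrsf1b reached 22 reads in the highest cKO library, A4 S2, against 4 in the highest Ctrl library. Tnf reached 10 reads in the highest cKO libraries, both of A10, against 0 in every Ctrl library. Each signal came from 1 of 3 cKO units.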

How the results depend on the processing

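None of the 18 alternatives gave an adjusted p under 0.05 to any of the 7 tested members or the 24 tested pathway genes; the smallest among the members and named pathway genes was 0.190 for Frmd8, and among the members 0.424 for Tnfrsf1a, both without Ctrl A8. Over all genes, limma called 0 (1349 at an unadjusted p under 0.05), 112 with 12 libraries and the A number as a random effect, and 0 to 1 with a unit left out, the 1 without Ctrl A1. The replicate number marks S1 or S2 within an A number and pairs no Ctrl unit with a cKO unit; adding it as a replicate block to the fit of 12 libraries gave 80 calls, and the S2 minus S1 deviations of Ctrl and cKO units had r of 0.133 to 0.176 over genes. The direction turned for Traf1 (0.16 without cKO A9, with a range of -0.35 to 0.16 when 1 unit was left out), Traf2 (0.074 without Ctrl A8 and 0.0022 without cKO A9, range -0.18 to 0.074), Birc2 (0.031 with upper quartile scaling, 0.011 with S2 alone and 0.0064 without cKO A9, range -0.11 to 0.0064) and Mapkapk2 (-0.00048 without Ctrl A8, range to 0.44); the cause was not tested. The unadjusted count over all genes was 2431 without Ctrl A8 and 865 without cKO A9. With 3 units per genotype, an exact permutation test cannot go below 0.1. Tnf and Tnfrsf1b had at most 10 and 22 reads in any library, and without the filter limma gave them adjusted p of 0.820 and 0.848.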

Other observations

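The tested genes most like the other members over the 6 units were Gtf2e1 for Adam17 (root mean square difference 0.041 on the centred log2 scale, against a deviation of 0.16 for Adam17 itself), Gm19337 for Ripk1 (0.037, against 0.26), Gucd1 for Traf2 (0.019, against 0.19) and Pcmtd1 for Birc2 (0.030, against 0.08). These are descriptions of 6 values each.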
